A study of Mus musculus with 5 samples.

Results

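Collagen chain genes were taken from the RNA-Seq counts by name alone, as the symbols made of Col, a type number, the letter a and a chain number. There were 44 of them among the 23478 gene symbols of the table, and 43 had enough counts to be tested. No measured value entered this choice. The libraries came from GFP-sorted lung cells of mouse pups at postnatal day 6 (P6), after 100 µg of tamoxifen per pup at P0 and again at P1. All pups carried Gli1-CreERT2, a tamoxifen-activated Cre recombinase driven from the Gli1 locus, and the Rosa26-eGFP reporter, which Cre switches on. The 2 Control libraries came from pups with 1 floxed and 1 wild-type allele of Igf1r, the receptor of insulin-like growth factor 1, and the 3 Igf1r-deleted libraries from pups with 2 floxed alleles. Control cells can therefore also lose a copy of the gene. By the methods of the study, the driver marks mainly fibroblasts, among them myofibroblasts and lipofibroblasts, with few smooth muscle cells and pericytes.

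Collagens are built of chains that wind around each other in a helix, in which glycine, the smallest amino acid, must recur at regular steps along every chain. Fibrillar collagens pack into the fibers that give the lung its tensile strength, and the fibril-associated collagens with interrupted helices (FACIT) sit on their surface. Type IV chains form the sheet of the basement membrane, type VI chains form beaded filaments around cells, type VIII and X chains form networks, type VII forms anchoring fibrils, and transmembrane collagens span the plasma membrane. Fibroblasts are the main source of fibrillar and type VI collagen in the lung.

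The repeat that defines the family can be read from the coding sequence. In the GENCODE M21 annotation of mm10, the first coding exon of 54 bases made only of glycine repeats is given for the 4 fibrillar chains with the highest level per length, to show the unit from which their genes are built. Capitals mark the 6 glycine codons, GGN, that open each repeat of 3 codons, and a GGN codon within a repeat stays in lower case.
Col1a1 coding exon 8 of 51, chr11:94939904-94939957, plus strand: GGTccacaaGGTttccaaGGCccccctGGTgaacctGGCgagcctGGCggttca
Col1a2 coding exon 8 of 52, chr6:4515481-4515534, plus strand: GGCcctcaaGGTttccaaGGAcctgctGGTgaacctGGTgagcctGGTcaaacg
Col3a1 coding exon 6 of 51, chr1:45325360-45325413, plus strand: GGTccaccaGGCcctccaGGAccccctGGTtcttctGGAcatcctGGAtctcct
Col5a1 coding exon 15 of 66, chr2:27965251-27965304, plus strand: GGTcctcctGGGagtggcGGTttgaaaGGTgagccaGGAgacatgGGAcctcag
Exons of this size made up 305 of the 627 internal coding exons of the fibrillar chains (48.6%), 26.4% of those of the FACIT chains, 8.37% of the beaded filament chains and 4.23% of the basement membrane chains. Over all other protein-coding genes the share was 0.433%. The network chains Col8a1, Col8a2 and Col10a1 have 2 coding exons each and no internal one.

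The longest unbroken run of GGN codons at this spacing was longer in every fibrillar chain than in any chain of another class. It counted 337 to 344 repeats in 9 of the 11 fibrillar chains, and 216 in Col24a1 and 217 in Col27a1. A run ends at any break in the repeat, so it does not give the length of the helix. Col24a1 and Col27a1 had 379 and 393 GGN codons in all, against 389 in Col1a1. The basement membrane chains had runs of 39 to 66 repeats although 27.5% to 28.6% of their codons were GGN, since their helix is interrupted many times. The main type VI chains Col6a1 and Col6a2 had runs of 87 repeats each, and the 4 longer type VI chains Col6a3, Col6a4, Col6a5 and Col6a6 had runs of 37 to 45. In the FACIT class the runs counted 32 to 113 repeats.

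The libraries were similar in depth, with 35116766 to 37597857 counts. Igf1r stood at 324 CPM (counts scaled to a common library size with TMM factors) in both Control libraries and at 140, 177 and 194 CPM in Igf1r-deleted 1, 2 and 3. The summed markers of matrix fibroblasts and lipofibroblasts were 24829 to 28621 CPM and those of myofibroblasts 3115 to 4245 CPM. Markers of epithelial cells summed to 504 to 1115 CPM, of endothelial cells to 312 to 901 CPM and of hematopoietic cells to 227 to 630 CPM, so the sorted cells held RNA of other types at low levels. By group, myofibroblast markers summed to 3115 and 3606 CPM in Control and 3594, 4245 and 3868 CPM in Igf1r-deleted libraries, with 8 of 10 genes above 0 (median log2 fold change 0.32, 3 called higher and 1 lower at an unadjusted p under 0.05). Matrix fibroblast and lipofibroblast markers summed to 27187 and 28621 CPM in Control and 27934, 24829 and 25613 CPM in Igf1r-deleted libraries. Of these 10 genes 7 were below 0 and 3 above (median -0.09, 2 called lower). Hematopoietic markers summed to 630 and 448 CPM in Control and 513, 360 and 227 CPM in Igf1r-deleted libraries. All 12 of them were below 0 (median -0.70, 3 called lower). Over all tested genes 47.7% were below 0, 5.65% were called higher and 6.75% lower. No gene of these lists was at 0 in any library, and their part in the collagen levels was not tested. Xist stood at 170 and 435 CPM in Igf1r-deleted 1 and 3 and at 4.09 CPM or less in the other 3 libraries, and the Y-linked gene Ddx3y was high in those 3 and at 0.227 CPM or less in Igf1r-deleted 1 and 3. No Control library was female, so sex and genotype can be told apart only in part.

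Collagen chains took a large part of the RNA. The 44 genes held 3.78% and 4.02% of all counts in Control 1 and 2, and 4.05%, 3.37% and 3.51% in Igf1r-deleted 1, 2 and 3. Igf1r-deleted 1 lay above both Control libraries and the other two lay below them. The group means were 3.90% ± 0.175 (SD) and 3.64% ± 0.357, a difference of -0.26 percentage points, and an exact permutation test (two-sided) gave p = 0.5, where 0.1 is the smallest value that 2 libraries against 3 allow. In every library the 10 chains with the highest level per length held 93.7% to 94.4% of the collagen counts, and Col1a1, Col1a2 and Col3a1 together held 54.7% to 59.9%. In bulk RNA, fewer cells of a type and less RNA per cell cannot be told apart.

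**Figure D1:**
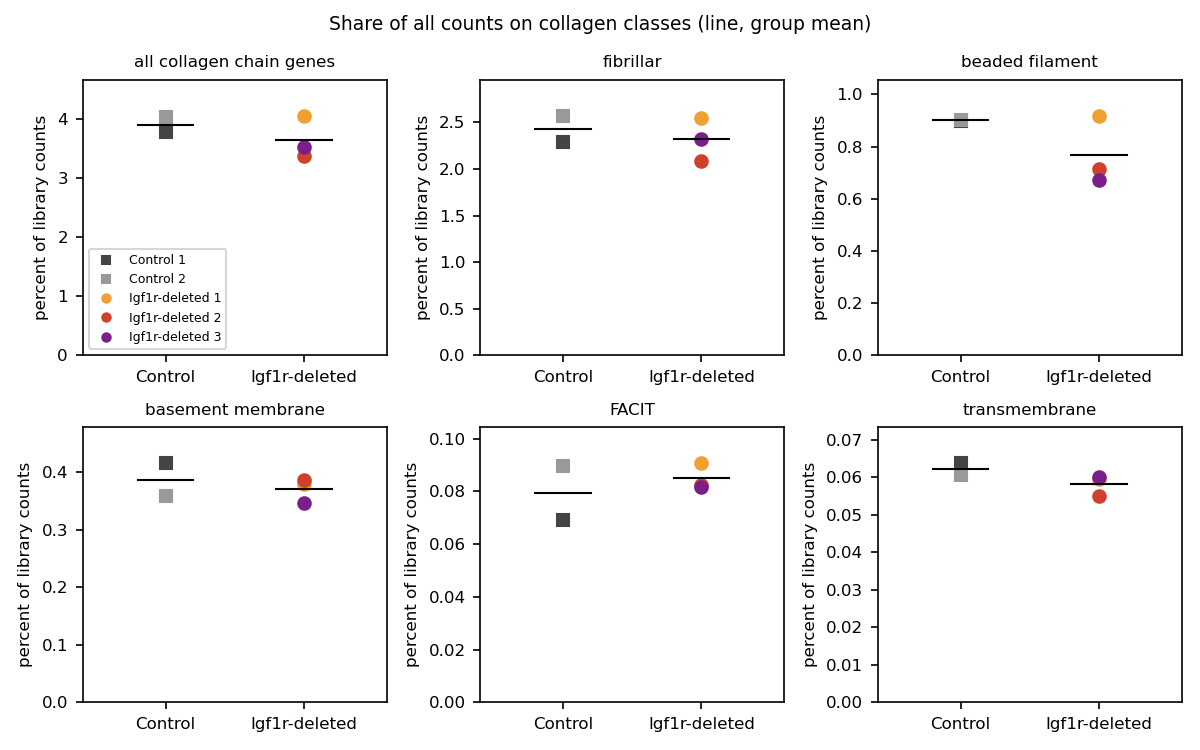
Percent of all counts of a library on collagen chain genes and on 5 of their classes, for 2 Control (squares) and 3 Igf1r-deleted libraries (circles), with the group mean as a line; each axis starts at 0. All collagen chains took 3.37% to 4.05% of the counts, and in the beaded filament panel Igf1r-deleted 1 sits with the Control libraries while Igf1r-deleted 2 and 3 sit below them.

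Levels between chains were compared as CPM per kilobase of exon, on the union of all annotated exons, which lowers the value of genes with long minor transcripts. Averaged over the 5 libraries, Col1a1 (940 CPM per kilobase) and Col3a1 (881) came first, followed by Col6a1 (560), Col1a2 (536), Col6a2 (326), Col4a1 (293), Col6a3 (255), Col4a2 (213), Col5a1 (159) and Col5a2 (75.8). The ranges of neighbors across libraries often overlapped, as those of Col1a1 and Col3a1 did, although Col1a1 was the higher within each library. Col5a1 and Col5a2 were clearly apart in every library. Below these came Col13a1 and Col14a1, known in the mouse lung as marker genes of separate matrix fibroblast populations, with 66.5 and 64.0 CPM per kilobase. The lowest was Col19a1, which had 0 to 5 counts per library and was not tested.

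**Figure D2:**
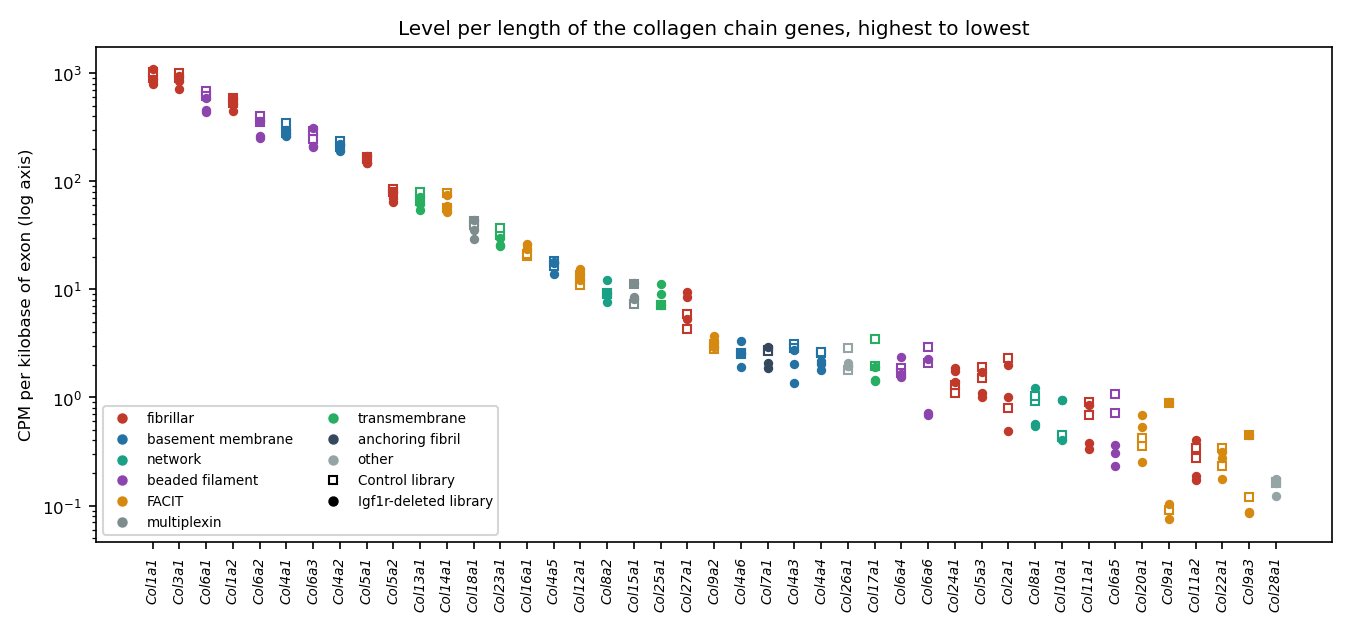
CPM per kilobase of exon (log axis) of the 43 tested collagen chain genes, ordered by their mean over all 5 libraries; color gives the class, open squares are Control and filled circles Igf1r-deleted libraries. Fibrillar, type VI and type IV chains fill the first 10 places, from 940 for Col1a1 to 75.8 for Col5a2 on average.

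More fold changes were below 0 than above it, and most were small. Of the 43 tested chains, 31 had a log2 fold change below 0 and 12 above, where 47.7% of all 15298 tested genes were below 0, and the median was -0.18 against 0.01 over all genes. At an unadjusted p-value under 0.05, edgeR's quasi-likelihood test called 5 chains lower and 3 higher, against a background of 6.75% of all genes called lower and 5.65% called higher. The groups did not overlap for 10 of 43 chains (7 lower, 3 higher), or 23.3%, a smaller share than the 31% of all genes. After Benjamini-Hochberg adjustment over all genes edgeR called 0 chains (background 0%), limma voom 0, and DESeq2 called 1, Col6a5, where it called 1.31% of all genes. The edgeR fit with a replicate block also called 1, Col6a5, where it called 0.889% of all genes.

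The 3 Igf1r-deleted libraries differed in how the chains stood. Igf1r-deleted 2 lay below both Control libraries for 30 of 43 chains (69.8%) and Igf1r-deleted 3 for 28 (65.1%), where these libraries lay below both for 37.4% and 37.3% of all genes. Igf1r-deleted 1 lay below both for 8 chains (18.6%) and above both for 18 (41.9%), against 34.8% of all genes in either direction. It was the highest of the 3 Igf1r-deleted libraries for 33 of 43 chains (76.7%), against 37.8% of all genes, while its Igf1r level was the lowest of the 3. The number of chains called lower moved from 5 to 17 without Igf1r-deleted 1, and to 2 without Igf1r-deleted 2 or 3. The shares of all genes called lower in these fits are not given here, so the counts cannot be set against a background.

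**Figure D3:**
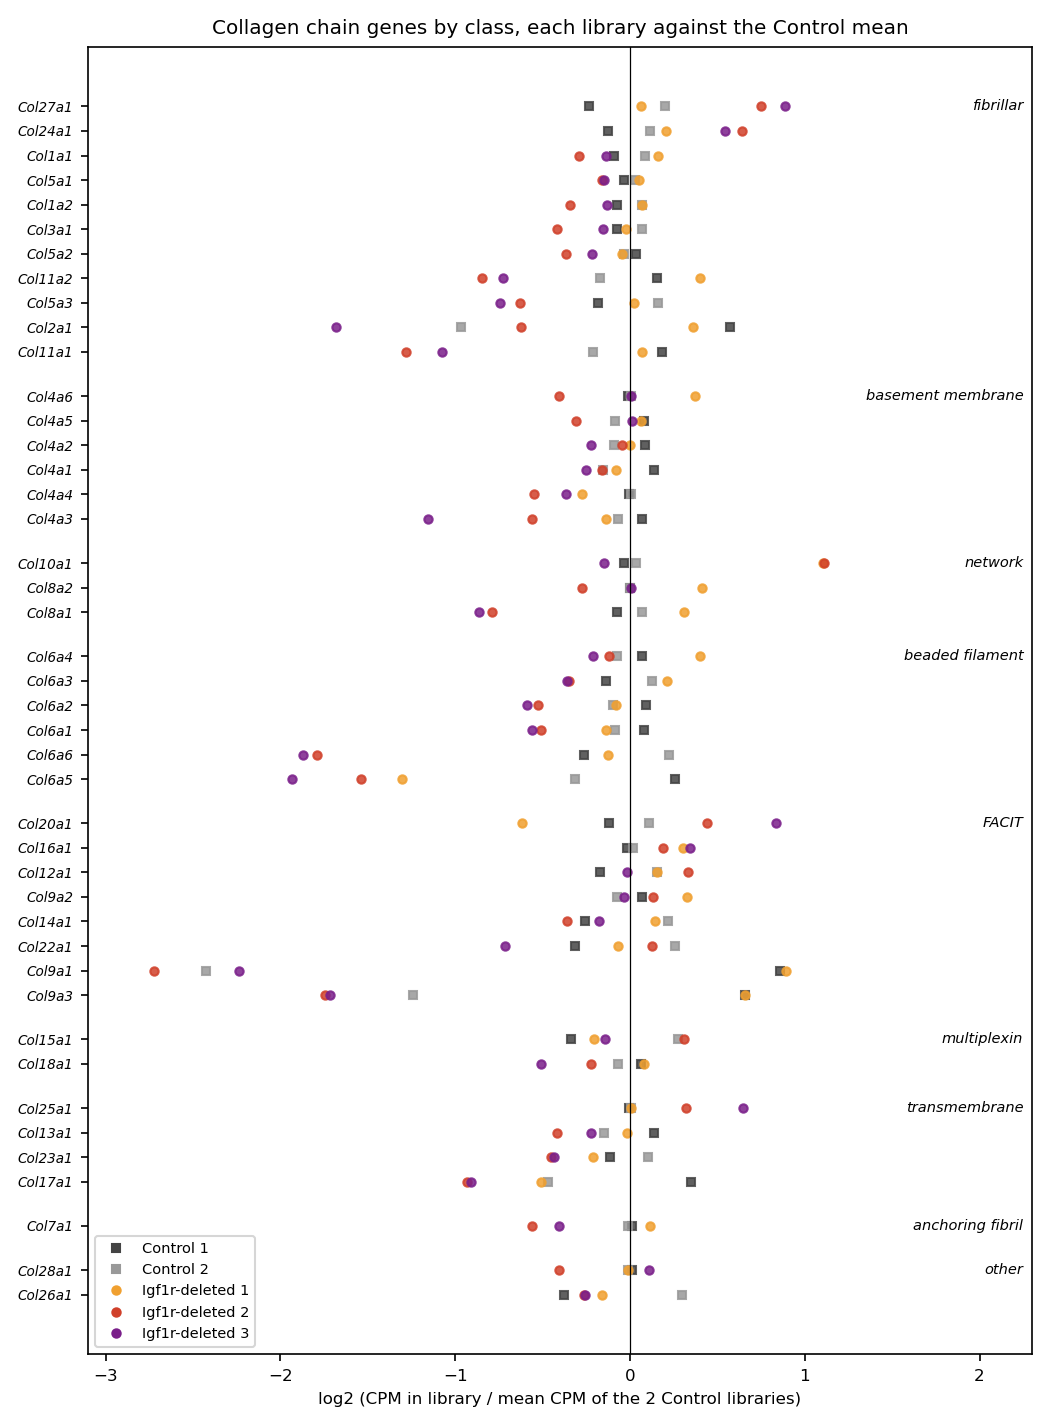
Each row is a tested collagen chain gene, grouped by class, and each point the log2 ratio of its CPM in a library to the mean CPM of both Control libraries (squares, Control; circles, Igf1r-deleted). Col6a5 has all 3 Igf1r-deleted libraries below the Control libraries, Col16a1 and Col24a1 have all 3 above, and in most rows Igf1r-deleted 1 sits to the right of Igf1r-deleted 2 and 3.

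Among fibrillar chains the type I and type III genes, which encode the bulk of the fiber, differed little between the genotypes. Col1a1, the α1 chain of type I, had 5968 and 6768 CPM in Control and 7114, 5212 and 5792 CPM in Igf1r-deleted libraries. The groups overlapped, with a log2 fold change of -0.08 ± 0.18 (SE). Its partner Col1a2 had 6657 and 7371 CPM in Control and 7367, 5528 and 6395 CPM in Igf1r-deleted libraries, and Igf1r-deleted 1 again stood with the Control libraries (-0.13 ± 0.17). Col3a1, the chain of type III, had 8879 and 9797 CPM in Control and 9204, 6985 and 8388 CPM in Igf1r-deleted libraries (-0.19 ± 0.17), and the groups overlapped too.

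Type V chains join type I fibrils and set their diameter. Col5a1 had 1367 and 1427 CPM in Control and 1451, 1251 and 1263 CPM in Igf1r-deleted libraries, with overlapping groups (-0.08 ± 0.12). Col5a2 had 809 and 770 CPM in Control and 764, 613 and 680 CPM in Igf1r-deleted libraries. All 3 Igf1r-deleted libraries were lower, by 0.20 ± 0.13 on the log2 scale, and edgeR's unadjusted p was 0.151.

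The 2 fibrillar chains with the short repeat run, Col24a1 and Col27a1, were the only 2 of the 11 with a log2 fold change above 0 in the fit of all 5 libraries. Col27a1 had 56.5 and 76.5 CPM in Control and 69.6, 112 and 123 CPM in Igf1r-deleted libraries. Igf1r-deleted 1 lay between the Control libraries, and the log2 fold change was 0.61 ± 0.25 (edgeR, unadjusted p = 0.0436, adjusted p = 0.398). Col24a1 had 8.35 and 9.88 CPM in Control and 10.5, 14.2 and 13.3 CPM in Igf1r-deleted libraries, without overlap (0.47 ± 0.18, unadjusted p = 0.0341, adjusted p = 0.38). Both stayed above 0 without any single library, Col27a1 between 0.40 and 0.83 and Col24a1 between 0.35 and 0.59.

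The remaining fibrillar chains were low in these cells. Col2a1, Col11a1 and Col11a2 are chains of cartilage fibrils, and Col5a3 is a minor type V chain. Their log2 fold changes were between -0.63 (Col11a1) and -0.28 (Col11a2), all with overlapping groups. Over the 11 fibrillar chains the median was -0.19, with 9 below 0, 0 called lower and 2 called higher at the unadjusted threshold. Among all tested genes 47.7% were below 0, 6.75% were called lower and 5.65% higher.

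Cartilage collagens stood apart by library. Col2a1, the main cartilage chain, had 21.4 and 7.34 CPM in Control 1 and 2 and 18.4, 9.30 and 4.48 CPM in Igf1r-deleted 1, 2 and 3. Col9a1, a FACIT chain that coats cartilage fibrils, had 4.52 and 0.464 CPM in Control and 4.62, 0.377 and 0.529 CPM in Igf1r-deleted libraries. Col9a3, its partner, had 1.73 CPM in both Control 1 and Igf1r-deleted 1 and 0.327 to 0.464 CPM in the other 3 libraries. In each case Control 1 and Igf1r-deleted 1 were high and the rest low. Col11a1 (11.7 and 10.8 CPM against 4.22 to 8.84 CPM) and Col11a2 (2.36 and 2.81 CPM against 1.18 to 1.88 CPM) were also highest in Control 1 and Igf1r-deleted 1. Without Control 1 the log2 fold changes of Col2a1, Col9a1 and Col9a3 turned from below 0 to 0.54, 1.97 and 0.76.

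Of the tested chondrocyte markers, Acan, Cnmd, Sox9, Hapln1, Ucma and Comp also had Control 1 and Igf1r-deleted 1 as the highest libraries. Matn4, Sox5 and Sox6 did not. In Control 1 and Igf1r-deleted 1, Sox9 stood at 17.5 and 17.4 CPM against 9.88 to 15.3 CPM in the rest. Hapln1 stood at 5.30 and 5.95 CPM against 2.17 to 4.04 CPM. Ucma (0 to 0.720 CPM) and Comp (0.0546 to 0.312 CPM) were very low. Acan, the core protein of cartilage aggrecan, stood at 9.07 and 10.9 CPM in Control 1 and Igf1r-deleted 1 and at 1.56 to 3.68 CPM in the other 3, and Cnmd, the gene of chondromodulin, at 0.634 and 0.737 CPM against 0.0273 to 0.0754 CPM. Matn4 had its lowest value in Control 1 (18.3 CPM against 20.4 to 23.6 CPM in the other 4 libraries), as did Sox6 (2.13 CPM against 3.07 to 4.31 CPM). Both had their highest value in Igf1r-deleted 1 (23.6 and 4.31 CPM). Sox5 was highest in Igf1r-deleted 2 and 3 (19.3 and 18.5 CPM against 12.6 to 13.9 CPM). These genes were named after their values were seen. The whole list of 11 genes in the table summed to 64.7 to 67.0 CPM in Control and 56.9 to 76.4 CPM in Igf1r-deleted libraries, with 3 genes (Matn1, Matn3, Ucma) at 0 in at least 1 library, and 5 of the 9 tested were below 0. Their part in the values of the cartilage chains was not tested. Col9a2, the third type IX chain, did not share this pattern and had 8.73 to 11.5 CPM in all 5 libraries.

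**Figure D4:**
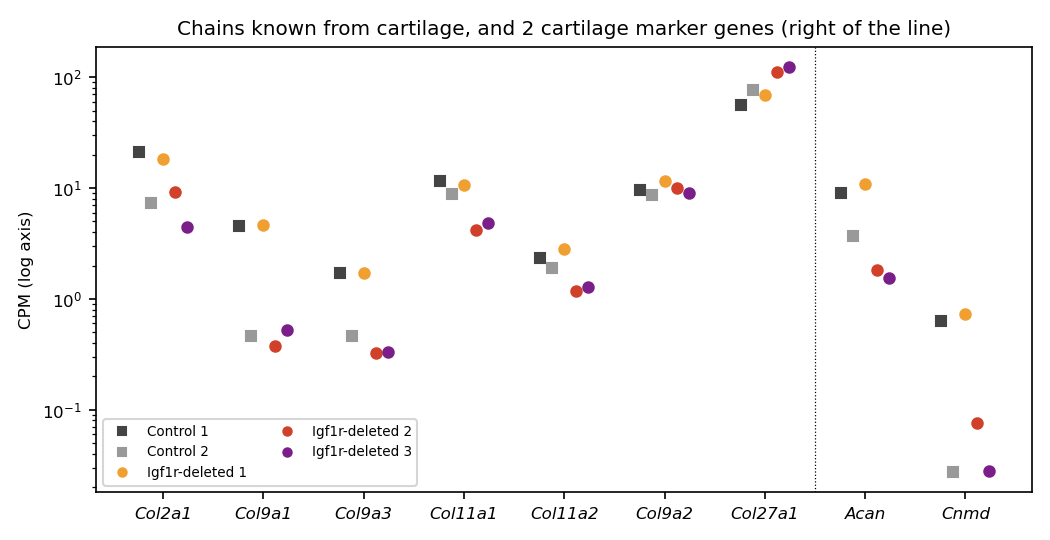
CPM (log axis) of 7 collagen chains known from cartilage and of the marker genes Acan and Cnmd, right of the dotted line, in each library (squares, Control; circles, Igf1r-deleted). Control 1 and Igf1r-deleted 1 are the highest 2 libraries for Col2a1, Col9a1, Col9a3, Col11a1, Col11a2, Acan and Cnmd. Col9a2 is level and Col27a1 is highest in Igf1r-deleted 2 and 3. Acan and Cnmd were picked after their values were seen. Of the tested chondrocyte markers not drawn, Sox9, Hapln1, Ucma and Comp have the same 2 libraries highest, and Matn4, Sox5 and Sox6 do not.

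The type VI class had a median log2 fold change of -0.38, with 5 of 6 chains below 0 and 2 called lower at the unadjusted threshold. Among all tested genes 47.7% were below 0 and 6.75% were called lower. Igf1r-deleted 2 and Igf1r-deleted 3 each lay below both Control libraries for all 6 chains, and Igf1r-deleted 1 for 2 of them. For all tested genes these shares were 37.4% in Igf1r-deleted 2, 37.3% in Igf1r-deleted 3 and 34.8% in Igf1r-deleted 1. As a share of collagen counts, type VI chains took 23.8% and 22.4% in Control 1 and 2 and 22.7%, 21.2% and 19.1% in Igf1r-deleted 1, 2 and 3.

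Col6a1 and Col6a2 encode the short chains that assemble with a long chain into the type VI monomer. Col6a1 had 3019 and 2697 CPM in Control and 2597, 2006 and 1938 CPM in Igf1r-deleted libraries, without overlap, and its log2 fold change was -0.39 ± 0.17 (edgeR, unadjusted p = 0.0499, adjusted p = 0.401). The unadjusted p was above the threshold with library totals (0.0501), with the replicate block (0.112), with sex as a term (0.0824), and without Control 1 (0.164), Igf1r-deleted 2 (0.149) or Igf1r-deleted 3 (0.197). Col6a2 had 3361 and 2945 CPM in Control and 2987, 2192 and 2093 CPM in Igf1r-deleted libraries. Only Igf1r-deleted 1 reached the Control range, and the log2 fold change was -0.38 ± 0.19 (unadjusted p = 0.0789). Col6a3, the usual long chain, had 2934 and 3516 CPM in Control and 3729, 2537 and 2508 CPM in Igf1r-deleted libraries, with Igf1r-deleted 1 above both Control libraries and a log2 fold change of -0.14 ± 0.21.

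Col6a4, Col6a5 and Col6a6 encode long chains related to the α3 chain that can take its place. They lie side by side on the minus strand of mouse chromosome 9, with 27917 bases between Col6a6 and Col6a5 and 28810 between Col6a5 and Col6a4, yet they did not move alike. In the fit of all 5 libraries Col6a5 had the largest difference of all collagen chains, while Col6a6 and Col9a1 exceeded it without Igf1r-deleted 1 and Col9a1 did without Control 1. It stood at 10.1 and 6.74 CPM in Control and at 3.40, 2.89 and 2.20 CPM in Igf1r-deleted libraries, so that every Igf1r-deleted library was below both Control libraries. The log2 fold change was -1.57 ± 0.27 in edgeR (unadjusted p = 0.000592, adjusted p = 0.354) and -1.58 in DESeq2 (adjusted p = 0.000319). Without any single library it stayed between -1.84 and -1.26. Its level was low, 0.892 CPM per kilobase in Control and 0.301 in Igf1r-deleted libraries, against 270 and 244 for Col6a3.

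Its neighbor Col6a6 had 19.1 and 26.7 CPM in Control and 21.0, 6.61 and 6.26 CPM in Igf1r-deleted libraries. Igf1r-deleted 1 lay within the Control range and the other two far below it, which gave a log2 fold change of -1.02 ± 0.505 (edgeR, unadjusted p = 0.0809), and -1.84 without Igf1r-deleted 1. Col6a4 had 16.0 and 14.5 CPM in Control and 20.1, 14.0 and 13.2 CPM in Igf1r-deleted libraries, with a log2 fold change of 0.05 ± 0.20. Col6a4 and Col6a6 do not fall under the naming rule and were picked as the neighbors of Col6a5.

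Of the 6 basement membrane chains 5 were below 0, against 47.7% of all tested genes. Col4a1 and Col4a2, which form the common type IV network, lie head to head on mouse chromosome 8 and overlap by 22 bases at their first exons, so that the same stretch of DNA holds both starts. Col4a1 had 2576 and 2103 CPM in Control and 2213, 2092 and 1962 CPM in Igf1r-deleted libraries (log2 fold change -0.16 ± 0.14). Col4a2 had 1548 and 1373 CPM in Control and 1462, 1414 and 1252 CPM in Igf1r-deleted libraries (-0.09 ± 0.13). Both pairs of groups overlapped.

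Col4a3 and Col4a4, chains of the network found in alveolar and glomerular basement membranes, also lie head to head, 71 bases apart on chromosome 1. Col4a4 had 27.6 and 27.8 CPM in Control and 22.9, 19.0 and 21.5 CPM in Igf1r-deleted libraries, all 3 lower, with a log2 fold change of -0.39 ± 0.12 (edgeR, unadjusted p = 0.0113, adjusted p = 0.354). Col4a3 was outside the naming rule and is given as the partner of Col4a4. It had 31.4 and 28.6 CPM in Control and 27.3, 20.4 and 13.5 CPM in Igf1r-deleted libraries, again without overlap (-0.56 ± 0.26, unadjusted p = 0.0649). Col4a5 and Col4a6, on the X chromosome, had log2 fold changes of -0.07 and 0.02.

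Alveolar epithelial cells are a known source of these chains, and the 12 epithelial markers, none of them at 0 in any library, summed to 1111 and 1034 CPM in Control and 748, 1115 and 504 CPM in Igf1r-deleted 1, 2 and 3. Of the 12, 10 had a log2 fold change below 0 and 1 was called lower at the unadjusted threshold, against 47.7% and 6.75% of all genes. Igf1r-deleted 3 was lowest for both the markers and Col4a3, while Igf1r-deleted 2, where the markers stood at the Control level, had the lowest Col4a4. The part of epithelial RNA in the levels of Col4a3 and Col4a4 was not tested.

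Of the 4 transmembrane chains 2 were called lower at the unadjusted threshold, Col23a1 and Col17a1, where 6.75% of all tested genes were called lower. Col23a1 had 184 and 214 CPM in Control and 172, 145 and 147 CPM in Igf1r-deleted libraries, without overlap, and a log2 fold change of -0.36 ± 0.12 (edgeR, unadjusted p = 0.0186, adjusted p = 0.354). Col17a1, a chain of the hemidesmosomes that anchor epithelial cells, had 20.9 and 11.8 CPM in Control and 11.5, 8.58 and 8.71 CPM in Igf1r-deleted libraries. All 3 Igf1r-deleted libraries were lower than both Control libraries, Igf1r-deleted 1 by little, and the log2 fold change of -0.77 ± 0.26 (unadjusted p = 0.0192, adjusted p = 0.354) was between -1.13 and -0.31 without any single library. The epithelial marker sums are given above, and their part in the level of Col17a1 was not tested.

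Col13a1, a transmembrane chain of cell adhesions, had 366 and 301 CPM in Control and 330, 249 and 286 CPM in Igf1r-deleted libraries, which overlapped (-0.21 ± 0.15). Col25a1, the remaining transmembrane chain, had 92.8 and 93.7 CPM in Control and 93.8, 117 and 146 CPM in Igf1r-deleted libraries. Igf1r-deleted 1 stood at the Control level, and the log2 fold change was 0.35 ± 0.18 (edgeR, unadjusted p = 0.0876), and 0.17 without Igf1r-deleted 3. It was named after its values were seen, as the transmembrane chain above 0.

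FACIT chains were balanced, with 4 of 8 tested below 0 and a median of 0.02. Col16a1, which joins fibrils and cell-adjacent matrix, had 139 and 142 CPM in Control and 173, 160 and 178 CPM in Igf1r-deleted libraries. All 3 Igf1r-deleted libraries were higher, and the log2 fold change of 0.28 ± 0.10 (edgeR, unadjusted p = 0.0215, adjusted p = 0.357) stayed between 0.25 and 0.32 without any single library. Col14a1, the FACIT chain with the highest level, had 394 and 548 CPM in Control and 519, 367 and 417 CPM in Igf1r-deleted libraries, which overlapped (-0.12 ± 0.19). Col12a1, its closest relative, was at 0.16 ± 0.14 on the log2 scale.

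The other classes held few chains, and none was called. Col8a2, a network chain, had 41.2 and 41.1 CPM in Control and 54.8, 34.0 and 41.3 CPM in Igf1r-deleted libraries (0.07 ± 0.19). Col18a1, a multiplexin of basement membranes and the precursor of endostatin, had 303 and 276 CPM in Control and 306, 248 and 204 CPM in Igf1r-deleted libraries (-0.20 ± 0.17). Col7a1, the chain of anchoring fibrils, had 28.4 and 27.9 CPM in Control and 30.5, 19.1 and 21.3 CPM in Igf1r-deleted libraries (-0.25 ± 0.19). Col26a1 had 14.7 and 23.5 CPM in Control and 17.1, 15.9 and 16.0 CPM in Igf1r-deleted libraries (-0.23 ± 0.20), and in all 4 of these genes the groups overlapped.

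Ratios between partner chains were compared within each library, where no scaling enters. Of 12 pairs, none passed an exact permutation test (two-sided) after Benjamini-Hochberg adjustment, with adjusted p-values of 0.514 to 1. With 2 libraries against 3 no pair could have passed, so the values are given as a description. The log2 ratio of Col6a1 to Col6a2 was -0.15 and -0.13 in Control and -0.20, -0.13 and -0.11 in Igf1r-deleted libraries, a difference of -0.01, and the ratio of Col1a1 to Col1a2 differed by 0.05. The other type VI ratio, Col6a3 to Col6a1, was -0.04 and 0.38 in Control and 0.52, 0.34 and 0.37 in Igf1r-deleted libraries, a difference of 0.24 with overlapping groups.

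The ratio of Col11a1 to Col11a2 was 2.28 and 2.20 in Control and 1.92, 1.79 and 1.88 in Igf1r-deleted libraries, the only pair at the smallest p an exact permutation test can give (p = 0.1). Its difference of -0.37 rested on low counts of Col11a2, which had 1.18 to 2.81 CPM. The ratios of Col5a1 to Col5a2 (difference 0.13) and of Col8a1 to Col8a2 (difference -0.49) were also apart between the groups, each with an exact permutation p of 0.2. Every other pair overlapped.

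**Figure D5:**
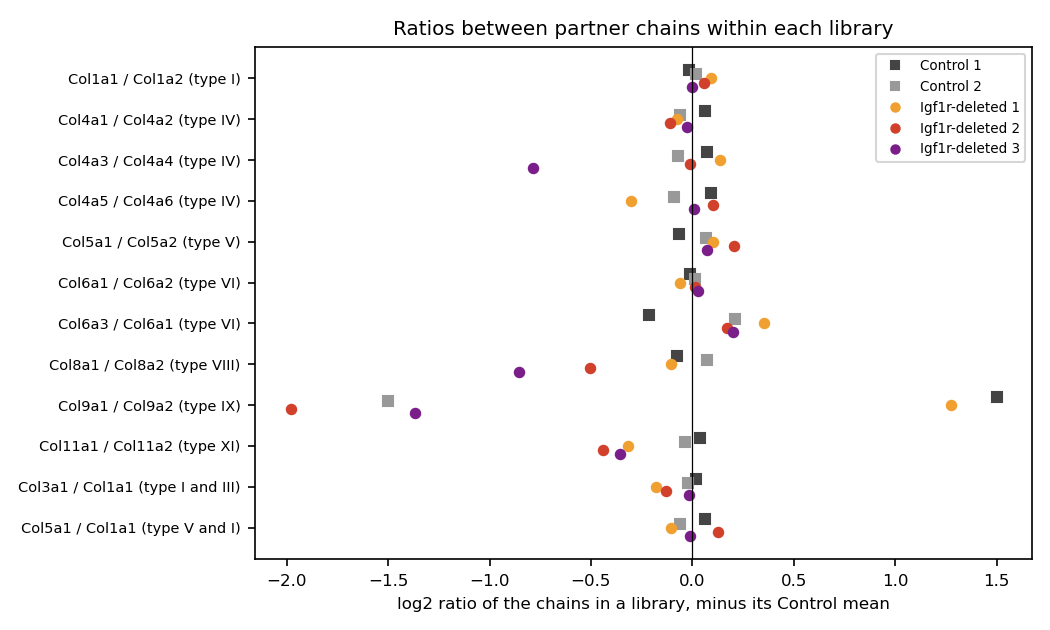
Log2 ratio of the counts of 12 pairs of partner chains in each library, minus the mean of the Control libraries for that pair (squares, Control; circles, Igf1r-deleted). Col6a1 to Col6a2 differs by -0.01 and Col6a3 to Col6a1 by 0.24 between the group means, Col11a1 to Col11a2 is lower in all 3 Igf1r-deleted libraries, and Col9a1 to Col9a2 splits Control 1 and Igf1r-deleted 1 from the other 3.

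The genes that fold, modify, process, link and remove collagen were split in direction. Of 68 listed genes 66 were tested, 36 below 0 and 30 above, with a median log2 fold change of -0.04, and edgeR called 5 lower and 3 higher at the unadjusted threshold and 0 after adjustment. These are 7.58% and 4.55% of the genes tested, near the 6.75% and 5.65% of all genes, so the counts are no result about the list. Lox, which crosslinks collagen and elastin, had 1898 and 1295 CPM in Control and 1283, 797 and 1024 CPM in Igf1r-deleted libraries, without overlap (-0.63, unadjusted p = 0.0305). Loxl1, the crosslinking gene with the highest CPM, had a log2 fold change of 0.15. The other genes called lower were Tmem38b (-0.79), an ion channel of the endoplasmic reticulum needed for collagen processing, Colgalt2 (-0.67) and Plod1 (-0.37), which modify lysine residues, and Ctsk (-0.32), a collagen-degrading protease.

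The 3 genes called higher were P4ha3, Creb3l1 and Sec24d. P4ha3, a catalytic subunit of prolyl 4-hydroxylase, had 29.3 and 44.1 CPM in Control and 41.3, 70.8 and 62.0 CPM in Igf1r-deleted libraries, with Igf1r-deleted 1 in the Control range (0.66). Creb3l1, a transcription factor of secretory genes, and Sec24d, a coat protein of the vesicles that export procollagen, were higher in all 3 Igf1r-deleted libraries (0.46 and 0.41). The highest genes of the other lists were at -0.05 (P4hb), 0.19 (Serpinh1, the collagen chaperone HSP47), -0.16 (Adamts2, a propeptidase), -0.05 (Itgb1, the β1 integrin) and -0.18 (Mmp2, a gelatinase). Among 12 genes for partners of fibrils and filaments 10 were below 0, against 47.7% of all tested genes. Their median was -0.31 and none was called. Fn1, fibronectin, was lower in all 3 Igf1r-deleted libraries (-0.53, edgeR unadjusted p = 0.0578).

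Promoter sequences from RefSeq (GRCm38.p6) matched 35 of the 44 genes, with 38 starts. Of the 8 chains called at the unadjusted threshold, the 250 bases before the RefSeq start are given for 4. In these 4 no annotated exon falls in that window. They show the DNA in front of the RefSeq start of chains that were lower (Col6a5, Col23a1) and higher (Col24a1, Col27a1). For Col27a1 GENCODE M21 starts the gene further upstream, at base 63214004, so the window printed for it lies inside that gene model. Capitals mark any match on either strand to a set of short motifs. These were the CCAAT box of those letters, the GC box with the letters GGGCGG, the TATA box with the letters TATAAA, the core of forkhead (FOXO) sites with the letters GTAAACA and the core of TEAD sites with the letters GGAATG.
Col6a5, chr9:105960644-105960893, minus strand: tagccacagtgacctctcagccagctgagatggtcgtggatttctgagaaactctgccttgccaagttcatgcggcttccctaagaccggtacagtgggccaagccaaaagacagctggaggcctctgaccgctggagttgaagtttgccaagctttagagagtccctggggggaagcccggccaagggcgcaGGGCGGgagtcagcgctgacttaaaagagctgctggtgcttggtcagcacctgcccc
Col23a1, chr11:51289670-51289919, plus strand: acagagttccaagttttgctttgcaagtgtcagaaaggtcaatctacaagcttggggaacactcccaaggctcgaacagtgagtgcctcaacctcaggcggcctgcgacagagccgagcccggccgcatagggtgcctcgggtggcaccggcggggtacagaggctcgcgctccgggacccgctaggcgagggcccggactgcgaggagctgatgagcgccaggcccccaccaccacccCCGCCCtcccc
Col24a1, chr3:145292222-145292471, plus strand: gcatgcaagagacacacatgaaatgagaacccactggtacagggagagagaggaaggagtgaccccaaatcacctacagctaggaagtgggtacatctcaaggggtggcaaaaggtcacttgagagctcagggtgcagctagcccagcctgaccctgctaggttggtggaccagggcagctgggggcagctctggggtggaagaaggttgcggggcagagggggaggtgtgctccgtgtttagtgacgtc
Col27a1, chr4:63215162-63215411, plus strand: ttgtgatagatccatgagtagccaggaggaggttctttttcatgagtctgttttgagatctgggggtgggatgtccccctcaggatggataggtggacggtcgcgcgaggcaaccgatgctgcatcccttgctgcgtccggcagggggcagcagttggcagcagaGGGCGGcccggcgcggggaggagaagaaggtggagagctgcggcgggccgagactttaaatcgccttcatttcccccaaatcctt
Col6a5, Col23a1 and Col27a1 each held 1 GC box in the window, and Col24a1 held no match. Over the 38 collagen starts the GC box was found in 57.9%, against 32.7% of all 32851 promoters of this length. The CCAAT box was found in 34.2% against 33.8%, the TATA box in 13.2% against 12.4%, the TEAD letters in 10.5% against 12.6% and the FOXO letters in 2.63% against 3.17%. The single FOXO match was in the window of Col6a1, which overlaps an annotated exon. These matches describe letters only.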

How the data were processed

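RNA-Seq of 5 libraries from GFP-sorted lung cells was used. For trimming the authors took Trim Galore, for alignment to mm10 Bowtie2 and for counting GenomicAlignments. They deposited raw counts per gene symbol, without normalization. Versions, gene annotation and strand use in counting are not given in the sources used here, so reads of overlapping genes cannot be assigned with certainty. The labels do not say that libraries came from separate animals, so p-values measure the spread between libraries. Reads carry no molecular identifiers, so a limit of 3 counts behind a value of 0 covers counting error only.

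Counts of all genes were fitted with edgeR 4.0.16 (R 4.3.3; TMM, filterByExpr, quasi-likelihood F test, two-sided, genotype only), with Benjamini-Hochberg adjustment over the 15298 genes tested, and the collagen rows were read from this fit. Ratios used a prior count of 2. The script recovered known changes when tested on simulated data. The simulated data had the same dispersion for every gene and only large changes. They therefore do not show whether differences as small as those of most chains could be found. Gene models came from GENCODE M21 (mm10) and promoters from RefSeq. Alternatives were DESeq2 1.42.0, limma 3.58.1 voom, the size factors of DESeq2 or library totals in place of TMM, a looser filter, a replicate block and leaving out each library, and sex as a term, added after seeing the data.

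Values per library are given for chains with an unadjusted p under 0.05, the 10 highest per length and the highest of each class. Pathway genes are named at an unadjusted p under 0.05 or as the highest of their list. The members, classes and lists were chosen with earlier results of these data known. The deposited table had 7 empty columns without a name, which were not used.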

Additional observations from a re-analysis of the deposited data

How the results depend on the processing

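With 2 libraries against 3, the spread between libraries limited what could be called. The number of chains with an adjusted p-value under 0.05 was 0 in edgeR and 1 (Col6a5) in DESeq2 and in the fit with a replicate block, which called 136 of all 15298 genes (Col6a5 adjusted p = 0.0443, log2 fold change -1.39), and 0 in all other fits. The shared numbers gave only 2 pairs, and nothing in the labels says that a number marks a shared litter. Deviations from the group means correlated for Control 1 and Igf1r-deleted 1 at 0.21 over all genes and 0.73 over the 43 chains, and for Control 1 and Igf1r-deleted 2 at -0.12 and -0.63. Deviations within a group cancel out, so these correlations are tied to each other and are not separate results. With the replicate block the median over the chains was -0.11.

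When each library was left out in turn, a lone Control library was assumed to vary like the others. The number of chains called lower was then 2 to 17 and higher 0 to 4 (0 without Control 1, 1 without Igf1r-deleted 2 or 3), and the number of pathway genes called lower 2 to 18 and higher 0 to 5. Without Igf1r-deleted 1 the lower counts were 17 and 18. Without Control 1 the pathway counts were 2 and 0, without Control 2 they were 8 and 5, and without Igf1r-deleted 2 or 3 they were 2 and 1. DESeq2 called 10 pathway genes lower and the looser filter 8. The shares of all genes called at this threshold in these other fits are not given here, so the counts are no result about either list. The median over all chains stayed below 0 in every fit, at -0.27 to -0.09 without single libraries and -0.10 with library totals, which moved the median of all genes to 0.09. The FACIT median was -0.093 to 0.22, with 0.22 without Control 1. The share of collagen counts differed by -0.46 to -0.12 percentage points, and by -0.44 on TMM-scaled sizes.

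With sex as a term, chosen after seeing the data, the genotype difference rests on Igf1r-deleted 2 against both Control libraries. The median over all chains was then -0.36, for fibrillar chains -0.36, basement membrane chains -0.36 and transmembrane chains -0.44, Col8a2 was at -0.28, and 1 chain and 1 pathway gene were called higher.

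The 23 chains of the naming rule kept the sign of their log2 fold change in 270 of 276 fits. The exceptions without single libraries were Col1a1 (-0.22 to 0.014), Col14a1 (-0.34 to 0.13), Col26a1 (-0.53 to 0.14) and Col8a2 (-0.14 to 0.22). Over all 43 tested chains 13 changed sign without some single library. Among those given in the report outside the rule these were Col2a1 (-1.06 to 0.54), Col9a1 (-2.46 to 1.97) and Col9a3 (-1.72 to 0.76), each highest without Control 1, and Col6a4 (-0.17 to 0.16), Col4a5 (-0.16 to 0.031) and Col4a6 (-0.19 to 0.19). The ratios that changed sign were Col4a3 to Col4a4 (-0.40 to 0.063), Col4a5 to Col4a6 (-0.15 to 0.055), Col6a1 to Col6a2 (-0.024 to 0.021), Col9a1 to Col9a2 (-2.19 to 0.81) and Col5a1 to Col1a1 (-0.060 to 0.062). The cause of these changes was not tested. Each pair of chains had at least 10 counts in every library, so that minimum left the ratios as they were.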
